A study of Rattus norvegicus with 125 samples.

Results

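Endothelial cells line the capillaries of the glomerulus and the vessels that run beside every tubule, and mesangial cells are the contractile cells that hold the glomerular capillaries together. The levels of 10 genes of these cells, of 17137 gene symbols in the deposited table, are described here across pieces of rat kidney. The genes were chosen by symbol: Pecam1, Tie1, Tek, Kdr, Flt1, Cdh5, Emcn and Ehd3 for endothelium, and Pdgfrb and Mgp for mesangial and vascular wall cells. Each has 1 transcript entry in the table, so all 10 could be followed in every library.

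All tissue came from male Sprague-Dawley rats, described as adult, and RNA was amplified by a single-cell protocol before sequencing. The pieces compared were glomeruli (n = 5), set against the libraries of 14 tubule segments, which with the glomeruli make 110 libraries. These were the proximal tubule segments S1, S2 and S3 (n = 7 each), the thin descending limb of short loops (SDL, n = 10), and that of long loops in the outer (LDLOM, n = 9) and inner medulla (LDLIM, n = 4). Next come the thin ascending limb (tAL, n = 7) and the thick ascending limb of the medulla (mTAL, n = 7) and of the cortex (cTAL, n = 7). The distal segments were the distal convoluted tubule (DCT, n = 8), the connecting tubule (CNT, n = 6) and the collecting duct of cortex (CCD, n = 11), outer medulla (OMCD, n = 7) and inner medulla (IMCD, n = 8). The rats of the segments weighed 200 to 250 g, and their kidneys were digested with collagenase, for 25 minutes where cortex was dissected, for 50 minutes for outer medulla and for 90 minutes for inner medulla. A separate experiment gave CCD from 5-week-old rats with minipumps that released DDAVP, a vasopressin agonist, at 5 ng per hour. They received 50 mL of water per day for 4 days (water load, n = 4) or 25 mL per day (control, n = 4). The protocol fields of the glomerulus samples repeat the text of that experiment and do not say how glomeruli were obtained or whether the rats carried pumps, so the kind of piece cannot be told apart from a difference in rats. For glomeruli and segments, whether replicates came from different rats is not stated. There a p-value reflects how far these libraries scatter, and that scatter may be technical. In the water-load experiment the labels name a numbered rat for each library. The whole-kidney samples of the series were not analysed here.

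Vascular endothelial growth factor (VEGF) made by podocytes and tubules acts on endothelial receptors, of which Kdr carries most of the signal and Flt1 binds the ligand tightly and also acts as a decoy. Angiopoietins act on the receptor Tek, with Tie1 as its partner. Pecam1 and Cdh5 hold endothelial cells to each other, Emcn coats their surface with a sialomucin, and Ehd3 is a membrane-trafficking protein known in the kidney for its presence in glomerular endothelium. Mesangial cells and pericytes depend on PDGF acting through Pdgfrb, and Mgp is a secreted inhibitor of vessel calcification.

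The promoters of the 3 receptor genes in this set for which a sequence was at hand are shown, because these genes were high together in glomeruli. Each covers 250 bases before to 50 after the transcription start, from RefSeq on GRCr8, which is a later build than the rn5 of the expression values. Capitals mark the letters AGGAAG or CCGGAA on either strand, cores that transcription factors of the ETS family are known to bind. The Tie1 promoter lies at chr5:137304932-137305231 on the minus strand, the Flt1 promoter at chr12:12333180-12333479 on the plus strand and the Kdr promoter at chr14:32571813-32572112 on the plus strand.
Tie1: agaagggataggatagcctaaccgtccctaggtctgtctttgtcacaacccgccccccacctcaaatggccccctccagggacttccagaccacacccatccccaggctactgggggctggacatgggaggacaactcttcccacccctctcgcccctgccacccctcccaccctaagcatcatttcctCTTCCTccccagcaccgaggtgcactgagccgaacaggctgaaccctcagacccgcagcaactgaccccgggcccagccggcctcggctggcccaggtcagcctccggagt
Flt1: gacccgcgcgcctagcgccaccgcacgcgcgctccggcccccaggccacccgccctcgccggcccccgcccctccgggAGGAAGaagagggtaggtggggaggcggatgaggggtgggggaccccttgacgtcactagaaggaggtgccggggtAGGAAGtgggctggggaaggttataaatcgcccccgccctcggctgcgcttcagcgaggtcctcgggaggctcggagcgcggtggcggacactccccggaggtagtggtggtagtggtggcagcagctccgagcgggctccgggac
Kdr: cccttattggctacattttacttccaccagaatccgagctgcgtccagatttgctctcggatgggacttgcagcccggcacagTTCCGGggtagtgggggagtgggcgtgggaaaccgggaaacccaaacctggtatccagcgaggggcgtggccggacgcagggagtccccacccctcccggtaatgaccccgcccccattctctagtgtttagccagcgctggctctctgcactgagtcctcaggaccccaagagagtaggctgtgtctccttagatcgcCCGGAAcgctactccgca
Promoter sequences were at hand for 5 of the 10 genes. AGGAAG was found 1 time in Tie1, 2 times in Flt1, 2 times in Emcn, 1 time in Ehd3 and 0 times in Kdr, and CCGGAA was found 2 times in Kdr and 0 times in the other 4. Among 33469 promoters of the same length, AGGAAG was in 34.5%, CCGGAA in 15.0% and either in 44.3%, so the letters alone are common, and whether a factor binds there was not measured.

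Values are RPKM, that is reads divided by transcript length in kilobases and by the reads of the library, and tests were run on log2(RPKM + 1), on which changes of low genes are understated. Tubule libraries held between 1437 and 8573 genes at 1 RPKM or more, and glomeruli between 8818 and 9483. Relative depth, recovered from whole-number ratios of low values, spanned 14.2-fold among tubule libraries and is uncertain by small whole factors, since all 5 reference libraries gave the same depth in 71 of 110 libraries. Counts are not in the tables, so no counting limit can be given for a gene at 0.

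The contents of a pair of libraries go against the labels, and results that rest on them are given with and without them. The libraries labelled tAL 1 and tAL 2 had 0.344 and 1.36 RPKM of Epcam, a surface protein of tubule epithelium, whereas tAL 3 to tAL 7 had between 144 and 2733 RPKM. They had 0.401 and 6.44 RPKM of Cdh16, the kidney cadherin, against 329 to 671 RPKM in tAL 3 to tAL 7. Summed over 10 tubule epithelial genes, the lowest of the 7 libraries held 3.83 RPKM, whereas the lowest of tAL 3 to tAL 7 held 705 RPKM. Of 19 further endothelial genes, 13 were at 1 RPKM or more in tAL 1 and 9 in tAL 2, with summed levels of 7382 and 4179 RPKM, whereas the other tAL libraries had 3 to 5 such genes and 238 to 695 RPKM. Plvap, the diaphragm protein of fenestrated capillaries, stood at 5483 and 2054 RPKM in tAL 1 and tAL 2, above the highest glomerulus (132 RPKM). Cldn5, an endothelial tight junction protein, was at 0.150 and 0.0527 RPKM in tAL 1 and tAL 2, against 473 RPKM or more in each glomerulus. The epithelial channel subunit Bsnd, typical of ascending limbs and chosen after its values were seen, was at 0.782 and 1.65 RPKM in tAL 1 and tAL 2 and between 332 and 1227 RPKM in tAL 3 to tAL 6. It was also low in tAL 7, at 0.482 RPKM, where Aqp1, the water channel of descending limbs, was at 5273 RPKM. The contents of tAL 7 thus also differ from those of tAL 3 to tAL 6. That library was kept in every tAL result, also where tAL 1 and tAL 2 were left out.

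**Figure D1:**
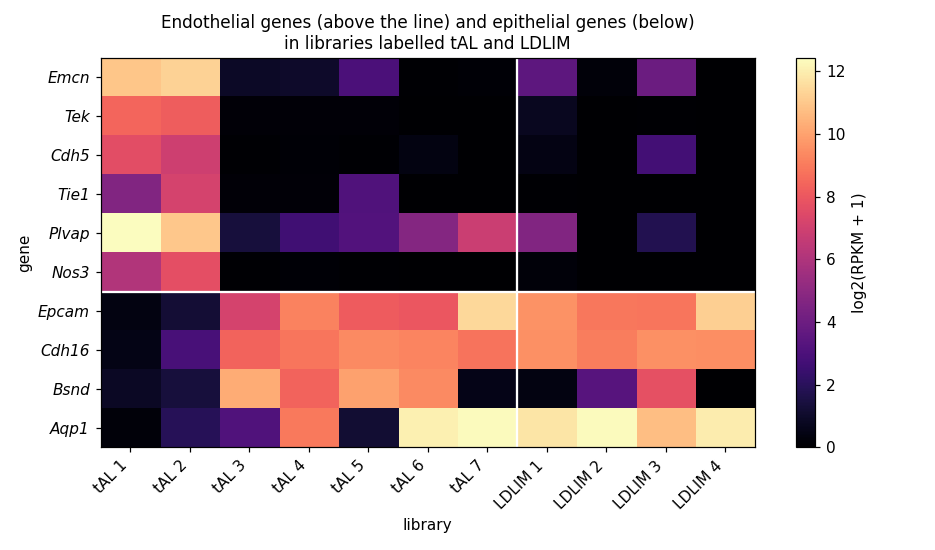
Each cell shows log2(RPKM + 1) of a gene in a library labelled tAL (left of the vertical line) or LDLIM (right). The columns of tAL 1 and tAL 2 are the brightest for Tek, Cdh5, Emcn and Plvap and dark for Epcam, Cdh16, Bsnd and Aqp1, whereas the other tAL and LDLIM libraries are bright for Epcam and Cdh16.

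Of the 10 genes, 9 passed the filter on low values in the tubule libraries alone, and 9 of 9 were higher in glomeruli than in the mean of the 14 segments, by between 2.36 (Pecam1) and 9.88 (Mgp) on the log2 scale. Pdgfrb passed it through the glomeruli, so it had to differ, and its values are a description. Of 11456 genes tested, 37.7% were higher and 1.19% lower by the same rule, an adjusted p under 0.05 and a log2 change of at least 1 in limma, so a higher level in glomeruli was itself common. Of the 11075 genes that passed the filter in tubules alone, 36.5% were higher, with a median change of 1.30, against 6.03 over the 9 genes. Under quantile normalization the median over all tested genes was -0.18 in place of 1.32, and the share of called genes that were higher was 61.7% in place of 96.9%. Pecam1 lost the call there (log2 change 0.76, adjusted p = 0.34), and the other 8 kept it. In whole pieces, more endothelial cells and more RNA per cell cannot be told apart.

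Of the adhesion and surface genes, Cdh5, the cadherin of endothelial junctions, stood at 160.2, 93.0, 100.1, 76.4 and 71.3 RPKM in glomeruli, against a median of 0.0117 and a highest value of 196 RPKM in tubules. Emcn stood at 659, 258, 640.2, 359 and 361 RPKM in glomeruli, against a median of 0.674 and a highest value of 2505 RPKM in tubules. Cdh5 rose by 6.03 ± 0.61 (log2 change ± SE; limma adjusted p = 2.1e-15) and Emcn by 6.92 ± 0.95 (adjusted p = 1.0e-09). In both genes 3 tubule libraries reached the lowest glomerulus, tAL 1 and tAL 2 with SDL 1 for Cdh5 and with SDL 10 for Emcn. Pecam1, which joins endothelial cells and binds leukocytes, stood at 41.7, 1.18, 2.24, 5.08 and 4.07 RPKM in glomeruli, against a median of 0 RPKM and a highest value of 143 RPKM in tubules. One glomerulus holds 76.9% of the summed Pecam1 level of the 5, and 6 tubule libraries (S3 1, SDL 2, tAL 1, tAL 2, mTAL 4 and DCT 7) reached the lowest glomerulus. Its change of 2.36 ± 0.41 (adjusted p = 1.2e-06) was the smallest of the 9 tested.

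The VEGF receptor Kdr stood at 119, 55.6, 106, 88.4 and 69.7 RPKM in glomeruli, against a median of 0.0103 and a highest value of 41.1 RPKM in tubules. Flt1 stood at 24.8, 12.4, 20.1, 18.4 and 30.6 RPKM in glomeruli, against a median of 0 and a highest value of 27.8 RPKM in tubules. Kdr did not overlap between glomeruli and tubules, whereas Flt1 in tAL 1 and tAL 2 (21.6 and 27.8 RPKM) lay within the glomerular range. Kdr rose by 6.09 ± 0.35 (limma adjusted p = 2.1e-31) and Flt1 by 4.13 ± 0.34 (adjusted p = 2.5e-20).

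Of the angiopoietin receptors, Tek stood at 58.9, 24.4, 44.3, 77.1 and 38.9 RPKM in glomeruli, against a median of 0 and a highest value of 340.4 RPKM in tubules. Its partner Tie1 stood at 79.2, 67.9, 107.5, 75.3 and 144 RPKM in glomeruli, against a median of 0.0630 and a highest value of 141 RPKM in tubules. For Tek, tAL 1 and tAL 2 (340.4 and 292 RPKM) exceeded every glomerulus, and no other tubule library reached the lowest glomerulus. For Tie1, SDL 5 (96.3 RPKM), SDL 10 (69.1 RPKM) and tAL 2 (141 RPKM) did so. Tek rose by 5.13 ± 0.53 (limma adjusted p = 7.4e-15) and Tie1 by 5.51 ± 0.68 (adjusted p = 2.0e-11).

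Like Kdr, the genes Ehd3, Pdgfrb and Mgp did not overlap between glomeruli and tubules. The share of all genes without overlap was not measured, so this is a description. Pdgfrb passed the filter through the glomeruli. Ehd3 stood at 453, 286, 436, 531 and 541 RPKM in glomeruli, against a median of 0.114 and a highest value of 74.2 RPKM in tubules. The PDGF receptor Pdgfrb stood at 56.0, 32.9, 41.8, 38.5 and 25.5 RPKM in glomeruli, against a median of 0 and a highest value of 14.0 RPKM in tubules. Only 2 tubule libraries held Pdgfrb at 1 RPKM or more, SDL 5 and CCD 10, so no test of it is given. Mgp was the most abundant of the 10 per length, at 3834, 3954, 5665, 5331 and 5277 RPKM in glomeruli, against a median of 1.54 and a highest value of 2671 RPKM in tubules. Ehd3 rose by 7.70 ± 0.67 (limma adjusted p = 5.9e-19) and Mgp by 9.88 ± 1.14 (adjusted p = 1.1e-12), and the difference of Pdgfrb was 5.22 on the same scale.

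**Figure D2:**
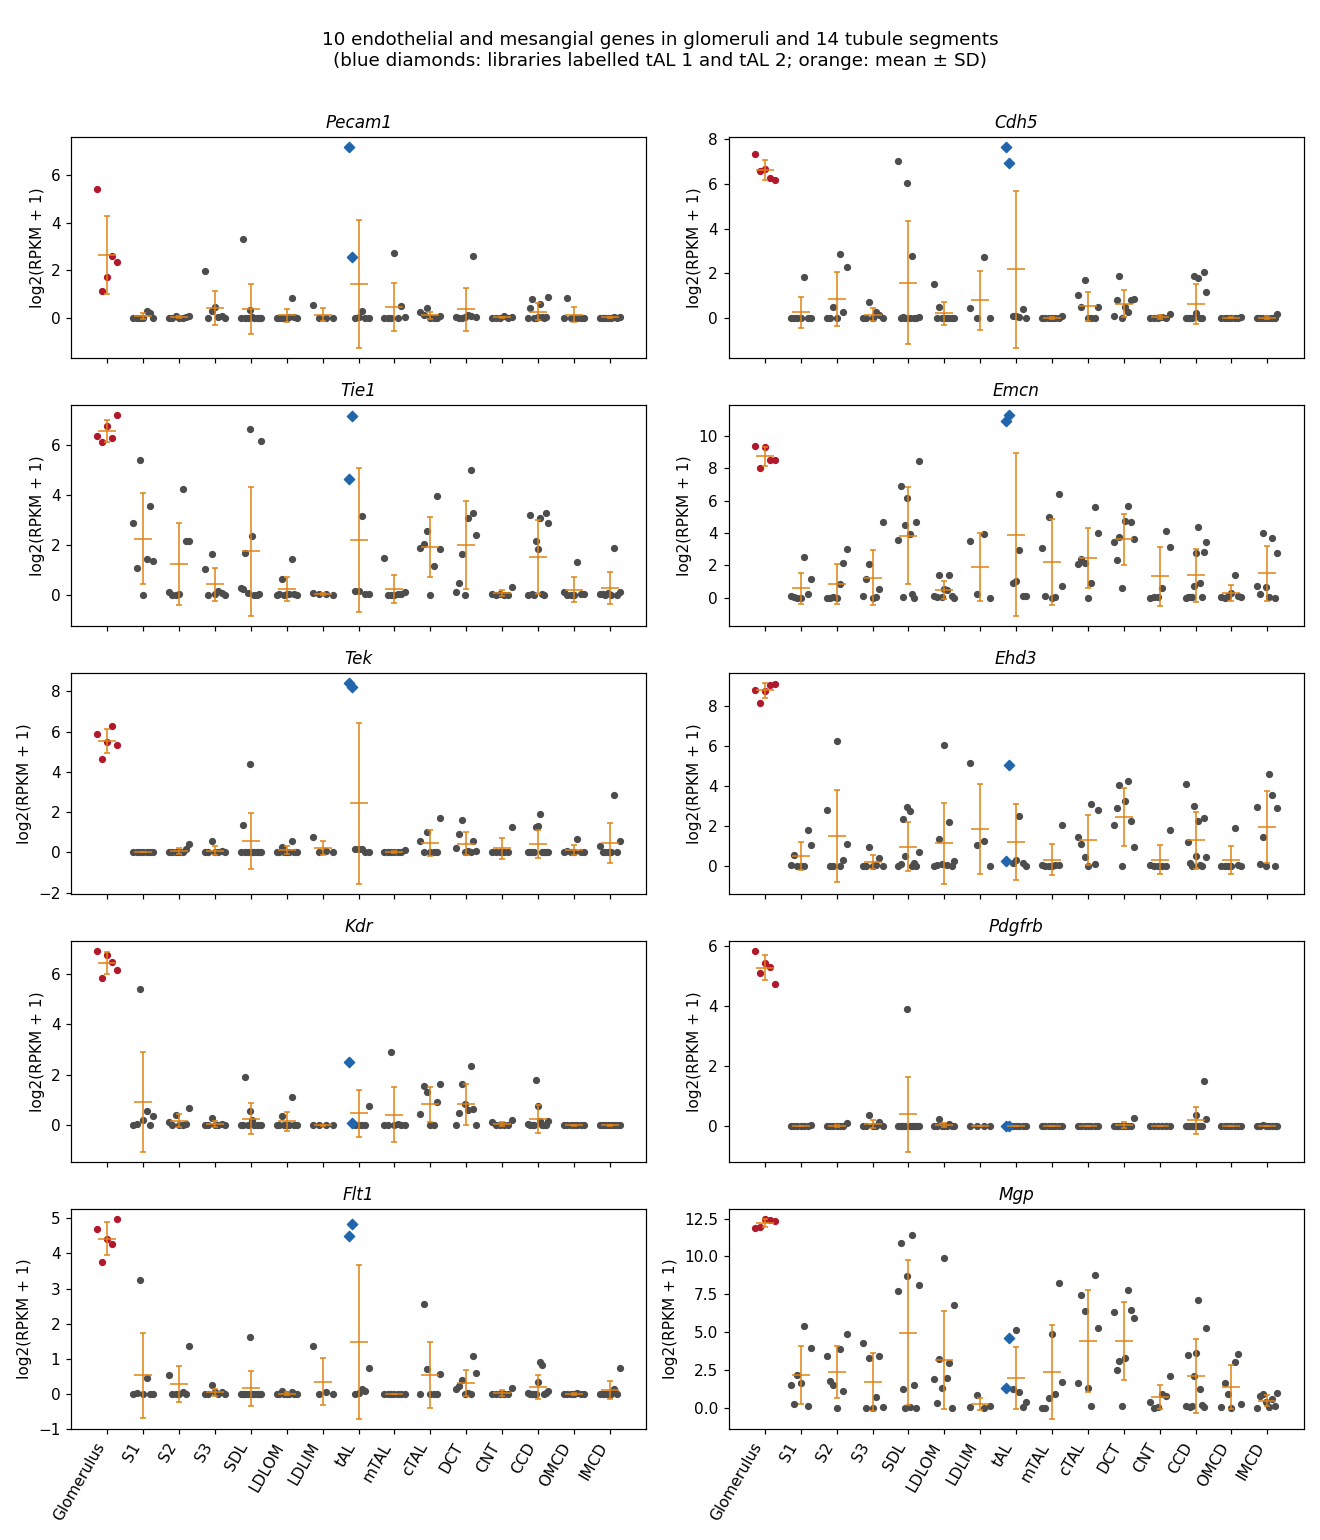
Each panel plots log2(RPKM + 1) of a gene, one point per library, for glomeruli (left, n = 5) and the 14 tubule segments, with the mean ± SD in orange and its own vertical axis. Glomeruli lie above nearly all tubule libraries in every panel except that of Pecam1, and the diamonds of tAL 1 and tAL 2 reach or pass the lowest glomerulus for Pecam1, Tek, Flt1, Cdh5 and Emcn (for Tie1, tAL 2 alone).

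The genes were then asked to exceed every segment at once. By this rule, a log2 change of at least 1 and an adjusted p under 0.05 in limma against each of the 14 segments, 8 of the 9 genes that passed the filter in tubules alone were above every segment, against 7.71% of all tested genes and 5.98% of those that passed it in tubules alone. The nearest segment was tAL for Tek (3.09), Flt1 (2.94), Cdh5 (4.42) and Emcn (4.84), S1 for Tie1 (4.29) and Kdr (5.48), DCT for Ehd3 (6.32), and SDL for Mgp (7.25), each as a log2 change, and for Pdgfrb it was SDL (4.88, not tested). Pecam1 was above 13 segments but not tAL, where its log2 change was 1.20 (adjusted p = 0.086). Without tAL 1 and tAL 2, Pecam1 was above all 14, with a smallest change of 2.18 (adjusted p = 1.2e-06), and the nearest changes of Tek, Flt1, Cdh5 and Emcn were 4.96, 3.87, 5.01 and 4.90. On the linear scale the same pair of libraries placed the mean of tAL above that of glomeruli for Pecam1 (21.2 ± 53.9 RPKM in tAL, n = 7, and 10.9 ± 17.3 in glomeruli, n = 5), Tek (90.5 ± 155 and 48.7 ± 20.1) and Emcn (640.7 ± 1102 and 455 ± 182; SD). The remaining 5 tAL libraries averaged 0.0451, 0.0785 and 1.77 RPKM of these 3 genes.

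Of 22 further endothelial genes, 19 were in the table, 16 were tested and 13 of these passed the filter in tubules alone. All of these 13 were higher, with a median log2 change of 4.92 against 1.30 over all genes that passed there, and 10 of the 13 were above every segment. Cldn5 had 929.9 ± 299 RPKM in glomeruli (SD, n = 5) and a median of 0 RPKM in tubules, and rose by 9.28 on the log2 scale. Eng, a co-receptor of the TGF-beta family, rose by 6.73, Ramp2, part of the adrenomedullin receptor, by 6.34 and Icam2, an adhesion molecule, by 5.54. Vwf, the clotting factor carried by endothelium of larger vessels, was below 0.1 RPKM in all 5 glomeruli and was not tested, and Cd34 was at 0 in each of them. Cd34 was also at 0 in every CCD library of the water-load experiment, where Plvap reached 132 RPKM. Whether its transcript entry captures the gene was not tested.

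Of 18 tested mesangial, pericyte and smooth muscle genes, 16 passed the filter in tubules alone, and 13 of the 16 were higher, with a median log2 change of 4.91, and 8 of the 16 were above every segment. Thy1, a mesangial surface marker in the rat, had 194 ± 61.4 RPKM in glomeruli and 1 RPKM or more in 1 tubule library, and passed the filter through the glomeruli. Des, an intermediate filament protein, rose by 6.82 and Rgs5, a pericyte regulator of G-protein signalling, by 5.59. The 3 that were not called, named after their values were seen, were Higd1b (1.72, limma adjusted p = 0.077), Acta2, the smooth muscle actin (0.36, adjusted p = 0.34), and Lmod1 (0.07, adjusted p = 0.84).

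In a list of 10 VEGF and angiopoietin ligands, co-receptors and the further VEGF receptor Flt4, 6 were higher and 2 were above every segment. Their median log2 change was 1.38, near the 1.32 over all tested genes, of which 37.7% were higher. Nrp1, a co-receptor for VEGF, rose by 4.24, Angpt2, which antagonizes Tek in many settings, by 2.90, Vegfc, the lymphatic ligand, by 2.70 and Vegfa, the main ligand of Kdr, by 2.53. Of the PDGF ligands and the alpha receptor, 4 passed the filter in tubules alone and 1 of these was higher, Pdgfd (1.77), a ligand of Pdgfrb. Pdgfb, its classical ligand, passed the filter through the glomeruli, and its difference was 0.49.

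Glomeruli also held other cells. Of 12 podocyte genes 10 passed the filter in tubules alone and all of these 10 were higher, among them Ptpro, a podocyte membrane phosphatase (7.80). The 12 genes summed to between 1733 and 4695 RPKM in glomeruli, against a median of 4.50 and a highest value of 938 RPKM in tubules. Of 13 tested leukocyte genes 12 were higher (C1qa 4.47, Cd68 4.19), and so were the 4 red cell genes that passed the filter in tubules alone (Hbb 6.93). Among all genes that passed there, 36.5% were higher. Only 1 of the 13 leukocyte genes was above every segment, against 7.71% of all tested genes. Summed over 14 leukocyte genes, glomeruli held between 795 and 1667 RPKM. Tubule libraries had a median sum of 206 and a highest of 2613 RPKM, above every glomerulus. Of 10 tubule epithelial genes, 3 were lower, Epcam by 4.32, Aqp2 by 4.26 and Cdh16 by 2.67 on the log2 scale, and Lrp2, the endocytic receptor megalin, rose by 2.79. The part of these cells in the levels of the 10 genes was not tested.

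**Figure D3:**
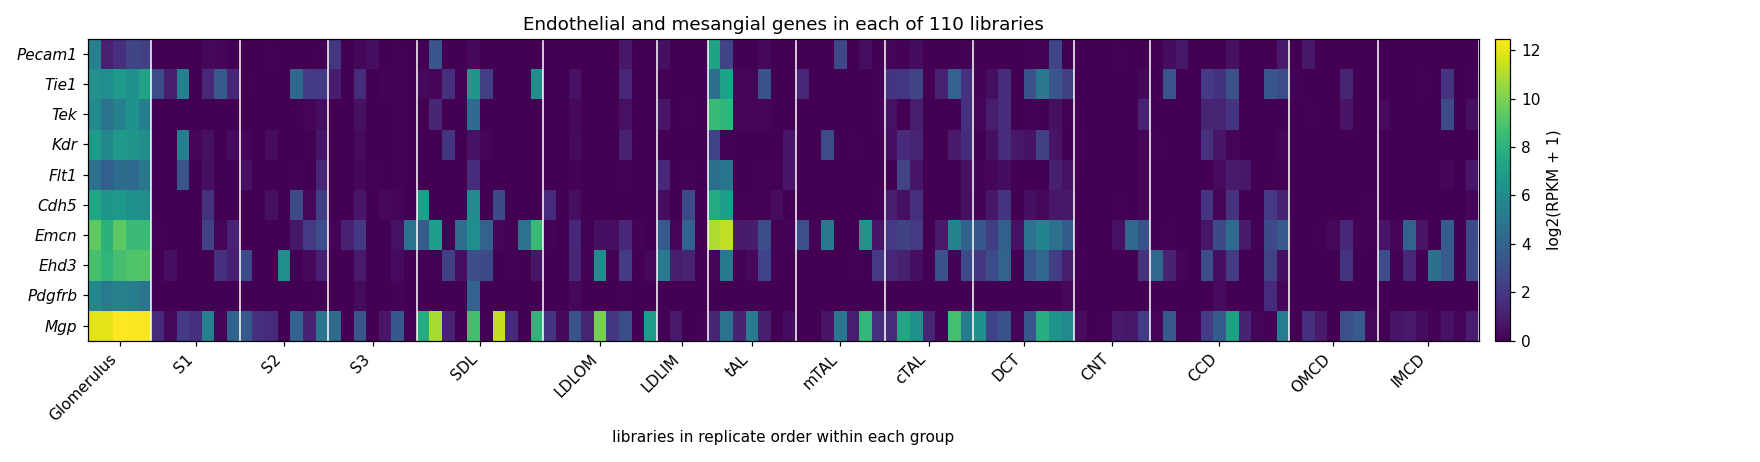
Rows are the 10 genes and columns the 110 libraries, with glomeruli at the left and the color giving log2(RPKM + 1). The 5 glomeruli form a bright block in every row except Pecam1, and most tubule cells are dark apart from scattered libraries, among them tAL 1, tAL 2 and SDL 5.

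Within tubules the genes were found in scattered libraries. At 1 RPKM or more, Mgp was present in 59 tubule libraries, Emcn in 47, Tie1 and Ehd3 in 39 each, Cdh5 in 17, Tek in 12, Kdr in 11, Flt1 in 8, Pecam1 in 6 and Pdgfrb in 2. None of the 10 reached 1 RPKM in 24 libraries, 1 or 2 did so in 39, 3 or 4 in 27 and 5 or more in 15. Only SDL 5, tAL 1, tAL 2 and DCT 3 held 7 or more. The count moved with the number of detected genes: its median was 1 in the 26 libraries under 3000 genes, 1 in the 46 libraries from 3000 to under 6000 genes, and 4 in the 33 libraries with 6000 or more. By segment the median ran from 0 of 10 genes in CNT and OMCD to 5 in cTAL, where the median library had 6699 detected genes. All 10 were at 1 RPKM or more in each of the 5 glomeruli.

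**Figure D4:**
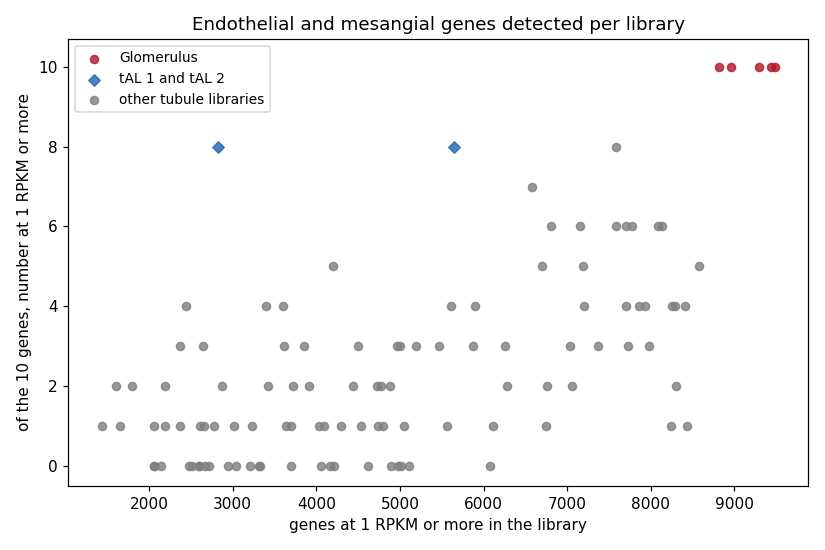
Each point is a library, with the number of genes at 1 RPKM or more on the horizontal axis and the number of the 10 endothelial and mesangial genes at 1 RPKM or more on the vertical axis. Glomeruli sit at 10, and tAL 1 and tAL 2 sit at 8 with 5651 and 2820 detected genes.

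The genes were not present in fixed proportion to each other. SDL 5 held 8 of the 10, with Tie1 at 96.3, Cdh5 at 63.8, Emcn at 69.3, Tek at 19.8, Pdgfrb at 14.0 and Mgp at 420 RPKM. It also held Epcam at 242 RPKM, Plvap at 173 RPKM and Slc14a1, the urea transporter of descending vasa recta, at 235 RPKM. Endothelial, mesangial and epithelial genes were therefore present together in this library. S1 3 held Kdr at 41.1, Tie1 at 40.2 and Flt1 at 8.57 RPKM, with Cdh5, Pecam1, Tek and Emcn at 0. In the authors' second table, described at the end, S1 3 had Kdr at 41.1 and Tie1 at 56.6 RPKM but Flt1 at 0. SDL 7 held Mgp at 2671 RPKM and Cdh5 at 5.92 RPKM, with Tie1, Tek, Kdr, Flt1 and Pecam1 at 0. LDLOM 5 held Mgp at 969.7 RPKM and Ehd3 at 66.1 RPKM, with Emcn at 0.459 RPKM. S2 4 held Ehd3 at 74.2 RPKM, the highest of any tubule library, and none of the other 9 at 1 RPKM. These levels depend on the transcript entry, since in the second table Ehd3 was at 0 in LDLOM 5 and S2 4, and Cdh5 was at 0 in SDL 7 and at 6.43 RPKM in SDL 5.

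Over the tubule libraries, the highest Pearson correlations of log2(RPKM + 1) among the 45 pairs of these genes were those of Tek with Flt1 (r = 0.77), Cdh5 (0.73) and Pecam1 (0.67). Without tAL 1 and tAL 2 they were 0.32, 0.43 and 0.15, and the highest pairs were Tek with Pdgfrb (0.60) and Kdr with Flt1 (0.58), for which Pdgfrb reached 1 RPKM in 2 tubule libraries and Flt1 in 8. The libraries share depth and detected genes, many values are at 0, and the correlations are a description. Among all genes with 1 RPKM in at least 10 tubule libraries, those most like each of the 10 are given with r and, after it, r without tAL 1 and tAL 2. Those most like Tek were Gimap5 (0.88 and 0.69), Clic2 (0.85 and 0.62) and Rapgef5 (0.84 and 0.50). For Flt1 they were Tek (0.77 and 0.32), Ptpru (0.77 and 0.37) and Dram1 (0.75 and 0.52). For Cdh5 they were Gimap5 (0.75 and 0.53), Tek (0.73 and 0.43) and Meis2 (0.72 and 0.48). For Pecam1 they were Tek (0.67 and 0.15), Plxnd1 (0.64 and 0.33) and Procr (0.63 and 0.45). For Emcn they were Plxnd1 (0.72 and 0.57), Pde2a (0.72 and 0.58) and Tmem204 (0.71 and 0.57). For Tie1 they were Slc9a3r2 (0.70 and 0.63), Pde2a (0.67 and 0.58) and the entry Mir126 (0.67 and 0.58). The r of Flt1, Cdh5 and Pecam1 with Tek was thus lower without these libraries. Those most like Kdr were Islr (0.64 and 0.60), Mmp14 (0.52 and 0.56) and Cd86 (0.51 and 0.54), and those most like Ehd3 were Xpo5 (0.59 and 0.56), Tsta3 (0.58 and 0.58) and Vps39 (0.58 and 0.56). Those most like Mgp were Rgs5 (0.65 and 0.65), Cldn5 (0.58 and 0.58) and LOC100910973 (0.54 and 0.59), and those most like Pdgfrb were C1qtnf1 (0.68 and 0.68), Col6a2 (0.64 and 0.64) and Gja4 (0.58 and 0.58).

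Levels differed among the 14 segments for 3 of the 9 genes tested, against 41.5% of all genes, in limma's F test: Emcn (adjusted p = 0.0074), Mgp (0.013) and Tie1 (0.017). Pdgfrb did not pass the filter on low values in tubules. Mean Tie1 was highest in tAL (24.7 RPKM, median 0.117), SDL (17.2, median 0.189) and S1 (8.80, median 1.72), and lowest in LDLIM (0.0254). One library held 81.6%, 55.9% and 65.2% of the summed level there (tAL 2, SDL 5 and S1 3), and without tAL 1 and tAL 2 the tAL mean was 1.63 RPKM, below DCT (6.71), cTAL (4.10), S2 (3.49) and CCD (3.31). Mean Emcn was highest in tAL (640.7 RPKM, median 1.01, and 1.77 without tAL 1 and tAL 2), followed by SDL (60.9, median 17.8), mTAL (17.7, median 0.679), DCT (17.2, median 12.01) and cTAL (10.6, median 3.36), and lowest in OMCD (0.281). SDL 10 held 57.2% of the summed level of SDL and mTAL 6 held 68.7% of that of mTAL, whereas 7 of 8 DCT libraries held at least 1 RPKM. Mean Mgp was highest in SDL (546 RPKM, median 105.04), LDLOM (123, median 2.89) and cTAL (104.8, median 37.4) and lowest in LDLIM (0.255). SDL 7 held 49.0% of the summed level of SDL, LDLOM 5 held 87.8% of that of LDLOM and cTAL 6 held 59.1% of that of cTAL. In the order of means, each segment's range overlapped that of the next for every one of the 10 genes. The 3 calls stood without tAL 1 and tAL 2 as well, with adjusted p-values of 0.0021 for Emcn, 0.012 for Mgp and 0.012 for Tie1. Of 19 alternatives, Emcn and Mgp kept the call in all 19 and Tie1 in 18, with a highest adjusted p of 0.053 for Tie1 in limma's F test.

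Each segment was also set against the mean of the other 13, which gave 6 calls among 126 gene and segment pairs, all higher. Over all genes 3.99% of such pairs were called higher and 1.19% lower. In tAL, Tek (2.20 ± 0.45, limma adjusted p = 0.00029), Cdh5 (1.73 ± 0.51, 0.021), Flt1 (1.28 ± 0.29, 0.0012) and Pecam1 (1.25 ± 0.33, 0.0083) were higher, where 4.86% of all genes were higher and 1.99% lower. All 4 rest on tAL 1 and tAL 2: without both, the changes were -0.14, -0.32, -0.00074 and -0.13, with adjusted p-values from 0.82 to 1.00, and each call also ended without either library alone. In SDL, Mgp (2.84 ± 0.83, adjusted p = 0.027) and Emcn (2.17 ± 0.70, adjusted p = 0.0498) were higher, where 2.81% of all genes were higher and 1.72% lower. Mgp in SDL ranged over a lowest of 0, a median of 105.04 and a highest of 2671 RPKM (n = 10), and the call ended without any of SDL 2, SDL 5, SDL 7 or SDL 10. Emcn ranged there over a lowest of 0, a median of 17.8 and a highest of 348 RPKM, and its call ended without SDL 2, SDL 5 or SDL 10. Of 19 alternatives, the call of Mgp in SDL was kept in 11 and that of Emcn in 8. Both ended with a pseudocount of 0.1, without the filter and under quantile normalization, and that of Emcn also in the second table. With the libraries under 2500 detected genes left out, the change of Mgp in SDL was 0.50 (adjusted p = 0.82). Without both tAL 1 and tAL 2, the calls were Mgp, Emcn and Cdh5 in SDL and Emcn in DCT (2.14 ± 0.65, adjusted p = 0.030). Cdh5 in SDL (1.25 ± 0.34, limma adjusted p = 0.013) had a mean of 19.7 but a median of 0.0182 RPKM. In the second table its mean over tubule libraries was 0.232 times that of the main table. This call was not tested there.

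Of 18 mesangial, pericyte and smooth muscle genes, 8 were at 1 RPKM or more in SDL 2, 12 in SDL 5, 4 in SDL 7 and 4 in SDL 10. Of all 17137 symbols, 2443, 7587, 2195 and 2649 were at that level in these libraries. Counts for the other SDL libraries are not given. The list also holds Fhl2, which was higher in the thin limbs as a group (log2 change 4.83, limma adjusted p = 1.4e-15). Rgs5 was at 1337, 80.5, 294 and 89.1 RPKM in SDL 2, SDL 5, SDL 7 and SDL 10, and at 318 RPKM in SDL 1, whereas it was at 0 RPKM in SDL 4 and SDL 8 and at most 0.00926 RPKM in SDL 3, SDL 6 and SDL 9. Slc14a1 was at 935 and 235 RPKM in SDL 2 and SDL 5 and at 179 RPKM in SDL 1, but at 0 and 1.37 RPKM in SDL 7 and SDL 10. Their part in the Mgp and Emcn levels of SDL was not tested.

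The thin limbs of the loop of Henle run beside the vessels of the medulla and were compared with the other 10 segments as a group. None of 9 genes was called in limma, against 8.14% of all genes called higher and 8.03% lower. Cdh5 had an adjusted p under 0.05 (0.023), but its log2 change of 0.87 ± 0.30 was below the limit of 1, and without tAL 1 and tAL 2 it was 0.36 (adjusted p = 0.29). The other 8 had changes between -0.13 and 0.99, and Emcn and Tek had an unadjusted p under 0.05 besides Cdh5. Of the further endothelial genes 1 of 13 was higher, Esam, a junction protein (4.38), and of the vasa recta list Aqp1 (6.42) and Igfbp7 (1.66) rose, of which Aqp1 is also the water channel of descending thin limbs.

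In the inner medulla, tAL was compared with LDLIM, and none of 9 genes was called in limma, with 0.117% of all genes called higher and 0.641% lower and 4 of the 9 genes at an unadjusted p under 0.05. Tek stood at 340.4, 292, 0.143, 0.131, 0.119, 0 and 0 RPKM in tAL 1 to tAL 7, against 0.691, 0.0209, 0.0524 and 0 RPKM in LDLIM. Emcn stood at 1971, 2505, 0.869, 1.01, 6.85, 0.0534 and 0.0805 RPKM in tAL 1 to tAL 7, against 10.4, 0.151, 14.3 and 0 RPKM in LDLIM. The tAL libraries outside tAL 1 and tAL 2 thus lay within the LDLIM range for both genes. The changes were 2.23 ± 0.72 for Tek (limma adjusted p = 0.14) and 1.99 ± 1.32 for Emcn (adjusted p = 0.69). Without tAL 1 and tAL 2 they were -0.11 and -0.90. Of 13 tested further endothelial genes 0 were called.

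In the CCD of the water-load experiment, none of 9 genes tested changed between water-loaded and control rats in limma, where 0.0942% of 8492 genes were called higher and 0.0589% lower, and 1 of the 9 had an unadjusted p under 0.05. That gene was Tek, at 3.62, 5.76, 7.80 and 2.16 RPKM in water-loaded rats, against 0.0817, 0.103, 2.22 and 3.36 RPKM in control rats. Its change was 1.42 ± 0.56 (adjusted p = 0.61), and the ranges overlapped. Emcn stood at 14.3, 28.5, 95.3 and 53.4 RPKM in water-loaded rats, against 4.13, 23.5, 43.5 and 141 RPKM in control rats. Pecam1 stood at 0.297, 0.284, 10.9 and 5.41 RPKM in water-loaded rats, against 0.00671, 0.160, 6.48 and 9.92 RPKM in control rats. In both arms replicates 3 and 4 were higher than replicates 1 and 2 for Emcn, Pecam1, Tie1, Kdr, Flt1 and Mgp. The same held for Plvap, at 10.9, 58.0, 122 and 110.1 RPKM in water-loaded rats and 10.9, 29.6, 132 and 131.6 RPKM in control rats. With the replicate number as a block 0 of the 9 genes were called, among 29 genes over all in place of 13. The other 8 genes had changes between -0.07 and 0.55, and Flt1 did not reach 1 RPKM in enough libraries to be tested.

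**Figure D5:**
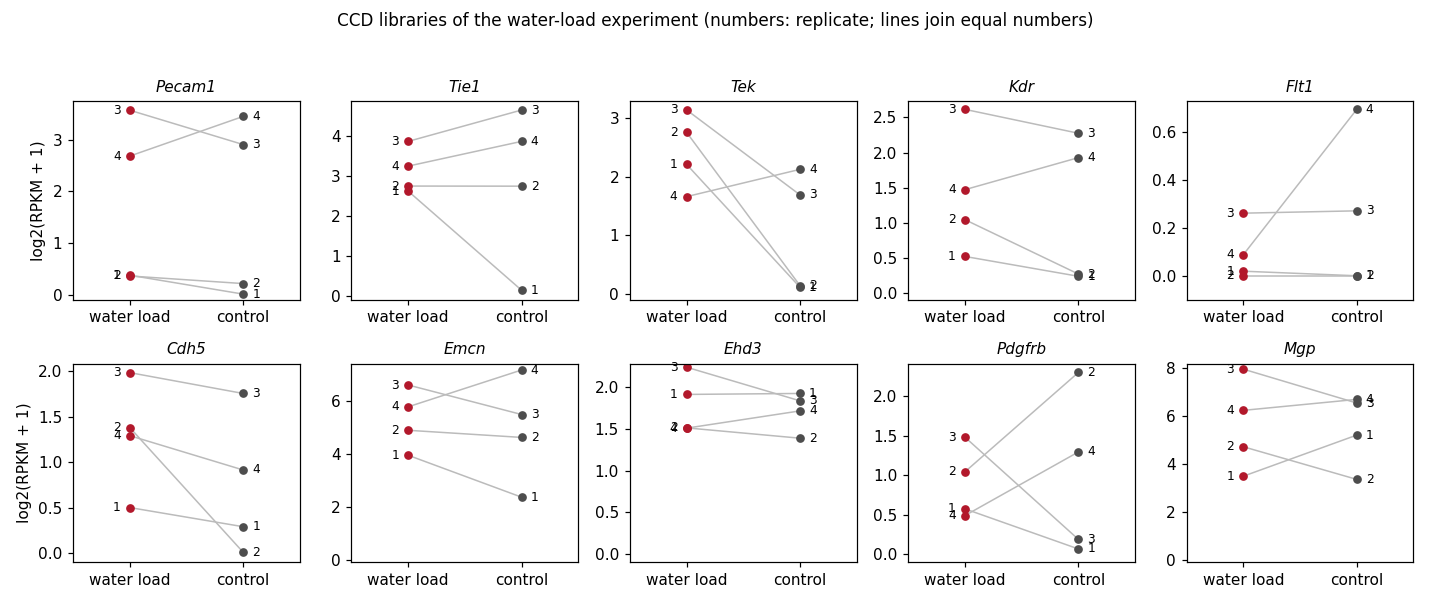
Each panel plots log2(RPKM + 1) of a gene in CCD of water-loaded rats (left, n = 4) and control rats (right, n = 4), on its own vertical axis, with replicate numbers beside the points and lines joining equal numbers. The groups overlap in every panel. Replicates 3 and 4 lie above replicates 1 and 2 in both groups for Pecam1, Tie1, Kdr, Flt1, Emcn and Mgp.

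How the transcripts were defined moved some levels in tubules. In the authors' second table, made without polyadenylation-site data, the mean over the tubule libraries was 0.104 times that of the main table for Flt1, 0.232 times for Cdh5 and 0.399 times for Ehd3, and 2.52 times for Emcn, 1.81 times for Pdgfrb and 1.60 times for Tek. Kdr had the same mean in both tables and Mgp differed by 1.02 times. In SDL 1, Cdh5 was at 0 there and at 127 RPKM in the main table. Flt1 was at 1 RPKM or more in 2 tubule libraries there, in place of 8, and Emcn in 59 in place of 47. The glomerulus columns of that table are displaced against its rows and were not used.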

How the data were processed

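RNA was measured by sequencing of amplified cDNA. Per the submitters' processing notes, Trimmomatic 0.32, STAR 2.3.0-r192, SAMtools and HOMER were used with the rn5 genome, with order and settings not given in the sources used. The authors deposited RPKM values per transcript entry, in a table that used polyadenylation-site data (main), one that did not, and one for the water-load experiment. Of 17974 entries, the one with the highest mean was kept per symbol (17137 symbols), and 9 entries without glomerulus values were left out. In the table without such data, glomerulus values sit up to 68 entries away from their own rows and were not used. No counts are in the tables, so depth is known only in relative terms.

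Values were tested as log2(RPKM + 1) with limma 3.58.1 (R 4.3.3), with a mean-variance trend, two-sided, and Benjamini-Hochberg adjustment over all genes with 1 RPKM or more in at least 4 libraries of the fit. A call needed an adjusted p under 0.05 and, except for the F test and the water load, a log2 change of at least 1. Tubule libraries shared one fit, with glomeruli added for their comparison, and the water-load libraries had their own. Scripts were tested on simulated data: of genes given a log2 change of 4, 81.8% were recovered in the glomerulus comparison, 50.0% between tAL and LDLIM and 98.5% in the water-load comparison, and of those given a change of 2, 32.8%, 5.97% and 58.2%, so smaller changes would mostly be missed between tAL and LDLIM. In these simulations the noise was normal, and changed genes were drawn from those at 1 RPKM or more in many libraries. Cdh5, Tek, Kdr, Flt1, Pecam1 and Pdgfrb reached 1 RPKM in too few libraries to be drawn for glomeruli or tAL. The rates need not hold for them. Samples were grouped by their labels. In the water-load experiment same-numbered libraries deviated together (r from 0.21 to 0.31 in 4 pairs), and the r of unlike-numbered libraries was not measured. The labels state no pairing, so the main test was unpaired and the replicate number entered as a block only in an alternative. Glomeruli and segments showed no such shared deviation. All 10 genes are named throughout. Where counts are given for genes that passed the filter in tubules alone, the same filter was applied to the tubule libraries only. From each other list up to 4 genes with the largest change are named, as are the 3 genes most correlated with each of the 10. Some genes that the rule would name are not reported here. The genes, lists and rules were chosen with earlier results of these data known. Alternatives covered the pseudocount, the filter, quantile normalization, detected genes as a covariate, libraries with few genes, the transcript entries, the replicate block, array weights, the second table and leaving out replicates. Tables and figures were made with Python 3.11.15, pandas 2.3.3 and matplotlib 3.10.9.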

Additional observations from a re-analysis of the deposited data

Results flagged for a closer look

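In 32 of 104 combinations of a gene and a group of 4 to 10 libraries, 1 library stood apart from the rest of its group by the gap between them on log2(RPKM + 1). Only combinations with a range of at least 1 on that scale were counted. For values with a normal spread and without such a selection, chance alone marks about 1 in 20. The rate after this selection, and for groups in which most values are near 0, was not measured. In each the high library is named with its RPKM.

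Of the adhesion and surface genes, Pecam1 stood apart in S3 1 (2.96), SDL 2 (8.87), tAL 1 (143), mTAL 4 (5.62) and DCT 7 (5.07). Cdh5 did so in S1 5 (2.54), LDLOM 1 (1.86), LDLIM 3 (5.70) and DCT 3 (2.69), and Emcn in OMCD 5 (1.59). Of the VEGF receptors, Kdr stood apart in S1 3 (41.1), SDL 3 (2.78), LDLOM 7 (1.19), tAL 1 (4.65) and mTAL 3 (6.53). Flt1 did so in S1 3 (8.57), S2 7 (1.57), SDL 5 (2.06), LDLIM 1 (1.58) and cTAL 2 (4.92).

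Of the angiopoietin receptors, Tie1 stood apart in LDLOM 7 (1.67), mTAL 1 (1.75), OMCD 5 (1.47) and IMCD 6 (2.69), and Tek in SDL 5 (19.8), CNT 6 (1.40) and IMCD 6 (6.14). Ehd3 stood apart in LDLOM 5 (66.1), mTAL 7 (3.19), CNT 6 (2.44) and OMCD 5 (2.66). Pdgfrb stood apart in SDL 5 (14.0).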

How the results depend on the processing

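Counts of called genes among the 10 stayed within 1.5 times the main count in 116 cases and moved in 8. Among the 14 segments 3 genes were called, 5 under quantile normalization and 5 without SDL 5 (3 to 5 when libraries were left out). Of the gene and segment pairs 6 were called, 2 with a pseudocount of 0.1 and 2 without tAL 1 or without tAL 2 (2 to 6 when libraries were left out). In the thin limbs 1 gene, Cdh5, was called under quantile normalization. Tubule libraries with 5 or more of the genes numbered 15 at 1 RPKM, 34 at 0.1 RPKM and 3 at 5 RPKM. Quantile normalization turned Pecam1 against its nearest segment to -0.35 and ended the call of Flt1 there (0.96, limma adjusted p = 0.075). Without tAL 1 and tAL 2 the direction turned for Tek (-0.14), Flt1 (-0.00074), Pecam1 (-0.13) and Cdh5 (-0.32) in tAL, and for Tek (-0.11) and Emcn (-0.90) between tAL and LDLIM. The replicate block changed no call among the 10 genes except that of Emcn in SDL (1.89, limma adjusted p = 0.13), leaving 5 pairs.

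Over all genes, 4455 were called in glomeruli, 2000 with the number of detected genes as a covariate, 1656 under quantile normalization and 6716 with segment means; 883 were above every segment, 340 under quantile normalization. Between tAL and LDLIM 84 were called, 53 without LDLIM 1, 188 without LDLIM 4 and 2 when fitted alone. For water load 13 were called, 0 with a pseudocount of 0.1, 1 without a filter, 29 with the block, 25 with array weights and 0 to 7 with a replicate left out. The causes were not tested. Values near 0 are limited by depth, which the tables give only in relative terms.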
